A study of Homo sapiens with 4 samples.

Results

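The subject is a set of 10 genes, of which all but DUSP10 encode brakes on the MAP kinase ERK or are commonly read as its output. DUSP10 acts on the related kinases p38 and JNK. The 10 are the dual-specificity phosphatases DUSP1, DUSP4, DUSP5, DUSP6, DUSP7 and DUSP10, the RAS pathway inhibitors SPRY2, SPRY4 and SPRED1, and PHLDA1. The genes were chosen by symbol, with earlier results of these data known, as were the gene lists used below. Counts set beside a share of all genes therefore describe the set and do not test a choice made in advance. Each gene of the set has 1 row among the 26255 gene symbols of the deposited expression table. RNA was sequenced from TOV21G, a human line grown from a clear cell carcinoma of the ovary. One culture each received As2O3 (arsenic trioxide, a thiol-reactive drug) at 1 µM for 48 h, GSK458 (an inhibitor of the kinases PI3K and mTOR) at 0.1 µM for 48 h, both drugs at those doses for 48 h, or no drug. The time of the culture without drug, called the control below, and whether it received a vehicle, are not stated by the labels.

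Growth factor receptors switch on RAS, which passes the signal through RAF and MEK to ERK. Active ERK then raises transcription of its own inhibitors. Dual-specificity phosphatases remove the activating phosphates from MAP kinases, and Sprouty and Spred proteins act further up, at the level of RAS. The messages of several of these genes appear and disappear quickly, so their levels are widely used as a readout of recent ERK signalling. They measure RNA here, and neither phosphorylated ERK nor phosphatase protein was measured.

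There was 1 library per group. Differences therefore carry neither an error nor a p-value, no test was run, and what follows describes 4 libraries. Levels are FPKM (fragments counted per kilobase of message and per 1000000 mapped fragments), so levels of different genes are compared per length. Differences are on the log2(FPKM + 1) scale, and a gene is called at least 2-fold apart where that difference is 1 or more in size. The background for each count is the 12260 genes that averaged 1 FPKM or more across the 4 libraries, and all 10 genes of the set were among them. The steps between low FPKM values give the scaling of each library relative to the control. It was 96.3% in the As2O3 library, 109% in the GSK458 library and 85.8% in the library of both drugs. If the scaling used mapped fragments alone, these are relative depths, but how it was done is not stated. Absolute depth is unknown. Among markers of the line, the annexin ANXA4 stood between 156 and 309.6 FPKM and the keratin KRT18 between 166 and 241 FPKM, while the epithelial cadherin CDH1 was at 0.22 FPKM or less and EPCAM at 1.71 FPKM or less. The summed level of 6 fibroblast markers was 2.32 to 5.98 FPKM, that of 6 immune markers 1.18 to 4.38 FPKM and that of 4 endothelial markers below 0.08 FPKM, with PTPRC, CD3E, COL3A1, LUM and KDR listed at 0 in every library. In bulk RNA, a change in the share of cells that make a message cannot be told apart from a change in its amount per cell.

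The control had the lowest level of every one of the 10 genes except SPRED1. Summed over the set, the level was 583 FPKM with As2O3, 417 FPKM with GSK458, 451 FPKM with both drugs and 246 FPKM in the control. With As2O3, 9 of 10 genes were higher than in the control and 3 were at least 2-fold higher (DUSP5, PHLDA1 and DUSP1), against 2.07% of all genes. None was at least 2-fold lower, against 1.41% of all genes. With GSK458, all 10 were higher and 1, DUSP5, was at least 2-fold higher, against 2.35% of all genes at least 2-fold higher and 3.87% lower. With both drugs, 9 of 10 were higher and 2, DUSP5 and SPRY4, were at least 2-fold higher, against 3.25% higher and 4.31% lower over all genes. The median difference of the set was 0.73 for As2O3, 0.68 for GSK458 and 0.59 for the combination, and that of all genes was 0.01, −0.01 and −0.01. Of all genes, 51.2%, 49.4% and 48.8% were higher than in the control. These comparisons use the same control library, so a low value there enters each of them.

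**Figure D1:**
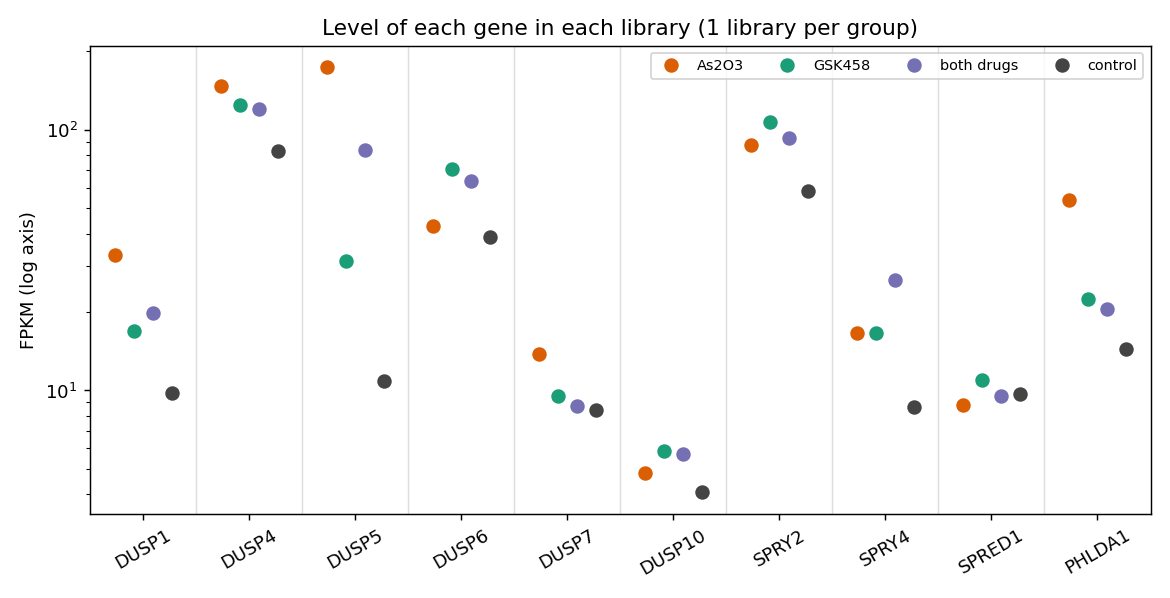
FPKM (log axis) of the 10 genes in each of the 4 libraries, 1 point per library. The control point is the lowest for every gene except SPRED1, and DUSP5 spans the widest range, with 174 FPKM in the As2O3 library and 10.8 FPKM in the control.

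DUSP1, DUSP4 and DUSP5 are the nuclear phosphatases of the set. DUSP5 acts on ERK alone and also holds it in the nucleus. It stood at 174 FPKM with As2O3, 31.5 FPKM with GSK458, 83.6 FPKM with both drugs and 10.8 FPKM in the control. All drug-treated libraries were above the control, and the As2O3 library was the highest. The log2 difference against the control was 3.88 with As2O3, which placed DUSP5 at rank 6 from the top of 12260 genes, 1.46 with GSK458 and 2.84 with both drugs. As ratios of FPKM these were 16.0, 2.90 and 7.71. A pseudogene, DUSP5P1, is listed separately at 0.16 to 0.85 FPKM, and how reads common to the gene and this copy were counted is not known.

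Its share of the RNA of the 6 phosphatases, summed per length, was 41.9% with As2O3, 12.2% with GSK458, 27.7% with both drugs and 6.99% in the control. DUSP4, which acts on ERK and JNK, was the most abundant of the 10 genes in the control, in the GSK458 library and with both drugs. Only in the As2O3 library was DUSP5 the more abundant gene, with a DUSP5 to DUSP4 ratio of 1.18, against 0.13 in the control. DUSP4 itself stood at 147 FPKM with As2O3, 124 FPKM with GSK458, 120 FPKM with both drugs and 83.3 FPKM in the control. Its differences against the control were 0.81, 0.57 and 0.53, all below 2-fold.

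DUSP1, an early response gene whose protein acts on p38, JNK and ERK, stood at 33.0 FPKM with As2O3, 17.0 FPKM with GSK458, 19.8 FPKM with both drugs and 9.75 FPKM in the control. The libraries ranked as for DUSP5, with As2O3 highest, then both drugs, then GSK458 and the control lowest. Against the control, DUSP1 differed by 1.66 for As2O3, 0.74 for GSK458 and 0.95 for the combination, the last just under 2-fold. With a pseudocount of 0.1 FPKM the value for both drugs was 1.02, past 2-fold. DUSP1 can also be induced by glucocorticoids. Of 6 genes on a list for that response, 4 were higher with As2O3 (median 0.15). PER1 was at least 2-fold higher at a log2 difference of 1.72, against 2.07% of all genes. SGK1 was at least 2-fold lower at −1.65, against 1.41%. The others were KLF9 at 0.68, NR3C1 at 0.24, FKBP5 at 0.06 and TSC22D3 at −0.45. NR3C1 was low, at 0.49 FPKM with As2O3 and 0.27 FPKM in the control. Of the same 6 genes, 2 were higher than in the control with GSK458 (median −0.44) and 3 with both drugs (median −0.33). With GSK458 none was at least 2-fold higher, against 2.35% of all genes. TSC22D3 and SGK1 were at least 2-fold lower, at −1.13 and −2.21, against 3.87%. With both drugs NR3C1 was at least 2-fold higher at 1.19 (1.89 FPKM), against 3.25% of all genes. TSC22D3 and SGK1 were at least 2-fold lower there, at −1.58 and −2.01, against 4.31%.

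The promoter of DUSP1 is shown because this gene was among those that differed most and because 2 of the motifs looked for lie close together in it. The window covers 250 bases before to 50 after the annotated start, from RefSeq on GRCh38.p14, minus strand, chr5:172771146-172771445. Capitals mark a cAMP response element (TGACGTCA), which begins 125 bases before the start, and an antioxidant response element (TGACNNNGC, here on the other strand), which begins 115 bases before it.
DUSP1: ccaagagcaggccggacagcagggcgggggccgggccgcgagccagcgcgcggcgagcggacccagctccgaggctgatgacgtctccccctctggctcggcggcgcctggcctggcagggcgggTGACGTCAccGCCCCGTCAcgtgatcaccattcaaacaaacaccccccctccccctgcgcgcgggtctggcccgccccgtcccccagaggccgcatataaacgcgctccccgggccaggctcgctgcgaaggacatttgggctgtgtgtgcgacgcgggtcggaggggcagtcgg
The cAMP response element stands in 1.84% of 34943 promoter windows of the same length and the antioxidant response element in 13.3%. Of the 10 genes, 8 had at least 1 such window (11 windows in all). DUSP4 and DUSP5 had none, so the promoter of DUSP5, the gene that differed most, was not searched. DUSP1 was the 1 with the cAMP response element, and DUSP1, DUSP10 and SPRY4 held the antioxidant response element. AP-1 (TGACTCA), ETS (CCGGAAG), ATF4/CHOP (TGATGNAAT), FOXO (GTAAACA) and CArG box motifs, searched on both strands, matched in none of these 11 windows and in 4.96%, 10.2%, 0.996%, 3.42% and 1.3% of all windows. A match is a description of the letters and not evidence of binding.

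AU-rich elements in the 3′ untranslated region are a known feature of short-lived messages, and DUSP1 is a well-studied example. In the longest GENCODE v29 basic transcript, the element TTATTTA followed by a pair of A or T bases was present in 5 of the 10 genes (DUSP1, DUSP4, DUSP10, PHLDA1 and SPRED1), against 22.4% of 10684 genes that passed the expression filter and matched by symbol. Longer regions hold more such matches, and the median length was 1959 bases in the set and 1364 bases in all matched genes. DUSP1 held 2 in 672 bases, where 10.2% of genes of like length (within 25%) held any. The same share was 14.6% for DUSP10, 40.2% for DUSP4, 45.6% for PHLDA1 and 49.7% for SPRED1, each of which held 1. DUSP5 held none, nor the shorter ATTTA, in 1118 bases; 15.8% of genes of like length held the longer element. The densest site is shown for DUSP1, beginning 92 bases after the stop codon, and for PHLDA1, beginning 305 bases after it, with the element in capitals (GENCODE v29, GRCh38, transcript strand).
DUSP1: ggctggtccTTATTTATTtaacttcac
PHLDA1: gatttatgaTTATTTATTagttttttt
Of 7 genes for proteins that bind such elements, ZFP36 was at least 2-fold higher with As2O3, against 2.07% of all genes. It stood at 13.5 FPKM there and at 4.08 FPKM in the control. The remaining 6 were less than 2-fold apart between As2O3 and the control, and ZFP36L1 came closest at 0.87. Between both drugs and As2O3, ZFP36L1 was at least 2-fold lower at −1.17, against 4.27% of all genes, and ZFP36 stood at −0.96.

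DUSP6 and DUSP7 are the cytoplasmic phosphatases that act on ERK. DUSP6 stood at 42.8 FPKM with As2O3, 71.1 FPKM with GSK458, 63.7 FPKM with both drugs and 38.7 FPKM in the control. Both libraries with GSK458 were above both libraries without it, which is a different order from that of DUSP5. The log2 difference of DUSP6 was 0.14 for As2O3, 0.86 for GSK458 and 0.70 for the combination. Accordingly the DUSP5 to DUSP6 ratio within a library, a measure that no scaling between libraries can move, was 4.06 with As2O3, 0.44 with GSK458, 1.31 with both drugs and 0.28 in the control. The pair was chosen for this ratio after the values were seen. DUSP7 stood at 13.8 FPKM with As2O3, 9.54 FPKM with GSK458, 8.73 FPKM with both drugs and 8.44 FPKM in the control, so the As2O3 library was the highest, by 0.64 over the control, and GSK458 and both drugs were 0.16 and 0.04 above it.

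DUSP10 acts on p38 and JNK rather than on ERK. Its level was the lowest of the set in every library, at 4.82 FPKM with As2O3, 5.86 FPKM with GSK458, 5.70 FPKM with both drugs and 4.06 FPKM in the control. The differences against the control were 0.20, 0.44 and 0.40. Like DUSP6, it was higher in both libraries with GSK458 than in those without, as was SPRY2, described next.

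The Sprouty proteins block the activation of RAS below receptor tyrosine kinases. SPRY2 was the second most abundant gene of the set in the control and stood at 87.7 FPKM with As2O3, 108 FPKM with GSK458, 92.8 FPKM with both drugs and 58.3 FPKM in the control. All differences against the control were below 2-fold, at 0.58, 0.87 and 0.66. SPRY4 stood at 16.7 FPKM with As2O3, 16.6 FPKM with GSK458, 26.4 FPKM with both drugs and 8.66 FPKM in the control. It was the 1 gene of the set with its highest level under both drugs. The single-drug differences of SPRY4 were 0.87 each, and both drugs together gave 1.51, a ratio of 3.05. The SPRY4 to SPRY2 ratio within a library was 0.29 with both drugs, 0.19 with As2O3, 0.15 with GSK458 and 0.15 in the control.

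The SPRY4 promoter window is given for that pattern, from RefSeq on GRCh38.p14, minus strand, chr5:142324198-142324497. Capitals mark its single match, an antioxidant response element on the other strand that begins 228 bases before the start.
SPRY4: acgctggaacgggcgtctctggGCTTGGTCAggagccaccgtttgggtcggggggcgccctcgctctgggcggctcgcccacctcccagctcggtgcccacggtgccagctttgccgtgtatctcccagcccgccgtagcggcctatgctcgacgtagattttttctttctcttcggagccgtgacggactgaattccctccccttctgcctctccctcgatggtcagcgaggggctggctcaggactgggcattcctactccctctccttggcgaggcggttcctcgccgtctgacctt
SPRY4-IT1, a noncoding transcript from within the SPRY4 locus, was also highest under both drugs. It stood at 0.92 FPKM with As2O3, 1.22 FPKM with GSK458, 6.19 FPKM with both drugs and 1.48 FPKM in the control, and whether reads of one were counted for the other was not tested.

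SPRED1 recruits the RAS inactivator neurofibromin to the membrane and had the flattest profile of the set. It stood at 8.81 FPKM with As2O3, 10.9 FPKM with GSK458, 9.56 FPKM with both drugs and 9.65 FPKM in the control, a span of 0.28 on the log2(FPKM + 1) scale. The paralogs outside the set were also less than 2-fold apart from the control under each treatment. SPRY1 stood at 79.4 FPKM with As2O3, 109 FPKM with GSK458, 108 FPKM with both drugs and 65.5 FPKM in the control, SPRED2 between 17.8 and 21.4 FPKM and SPRED3 between 2.92 and 4.66 FPKM. SPRY3 was listed at 0 in all 4 libraries. SPRY1 shared with DUSP6, DUSP10 and SPRY2 the higher level in both libraries with GSK458.

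PHLDA1, a protein with a pleckstrin homology-like domain, is part of published scores of ERK output. It stood at 53.7 FPKM with As2O3, 22.5 FPKM with GSK458, 20.6 FPKM with both drugs and 14.4 FPKM in the control. The As2O3 library alone stood at least 2-fold above the control, with a log2 difference of 1.83 and a ratio of 3.73. GSK458 gave 0.61 and both drugs gave 0.49. Its family member PHLDA2, named after its values were seen, stood at 25.5 FPKM with As2O3, 4.42 FPKM with GSK458, 6.30 FPKM with both drugs and 5.91 FPKM in the control.

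**Figure D2:**
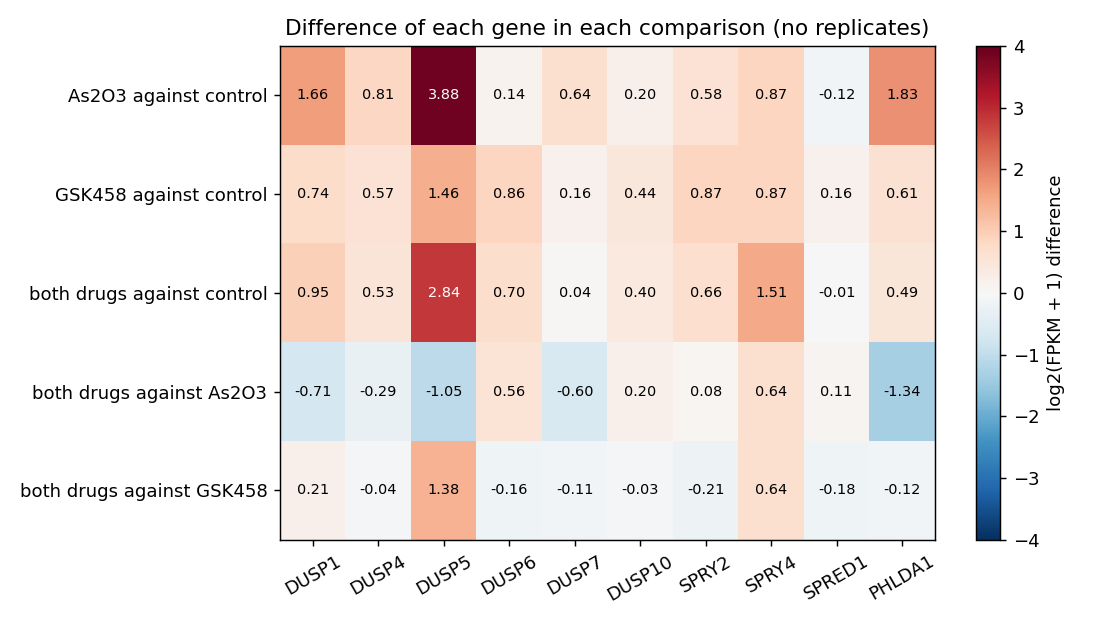
Difference of each gene on the log2(FPKM + 1) scale in the 5 comparisons, red where the first-named group was higher and blue where it was lower. DUSP5 is at least 2-fold apart in all 5 comparisons, and the row of both drugs against GSK458 lies within 0.21 of 0 for every gene except DUSP5 and SPRY4.

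Setting both drugs against As2O3 alone asks what GSK458 does to cells that also hold arsenic. Here 2 of 10 genes, PHLDA1 and DUSP5, were at least 2-fold lower, against 4.27% of all genes, and none was at least 2-fold higher, against 2.28%. The differences were −1.34 for PHLDA1, −1.05 for DUSP5, −0.71 for DUSP1, −0.60 for DUSP7 and −0.29 for DUSP4. DUSP6 and SPRY4 were higher, at 0.56 and 0.64, and DUSP10, SPRED1 and SPRY2 lay between 0.08 and 0.20. Of the 10 genes 5 were thus higher and 5 lower, with a median of −0.10, and the median of all genes was −0.02. The call for DUSP5 was lost with upper-quartile scaling, where its difference was −0.97.

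Setting both drugs against GSK458 alone asks what arsenic does to cells that also hold GSK458. In this comparison 1 of 10 genes, DUSP5, was at least 2-fold higher at 1.38, against 0.644% of all genes, and none was at least 2-fold lower, against 0.318%. DUSP5 stood at 83.6 FPKM with both drugs and 31.5 FPKM with GSK458, a ratio of 2.65. SPRY4 followed at 0.64 and DUSP1 at 0.21. The other 7 genes were lower, none by more than 0.21, with PHLDA1 at −0.12 against 1.83 for As2O3 without GSK458. DUSP5 and SPRY4 were thus the genes of the set with a higher level of more than 1.5-fold for As2O3 in both settings.

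**Figure D3:**
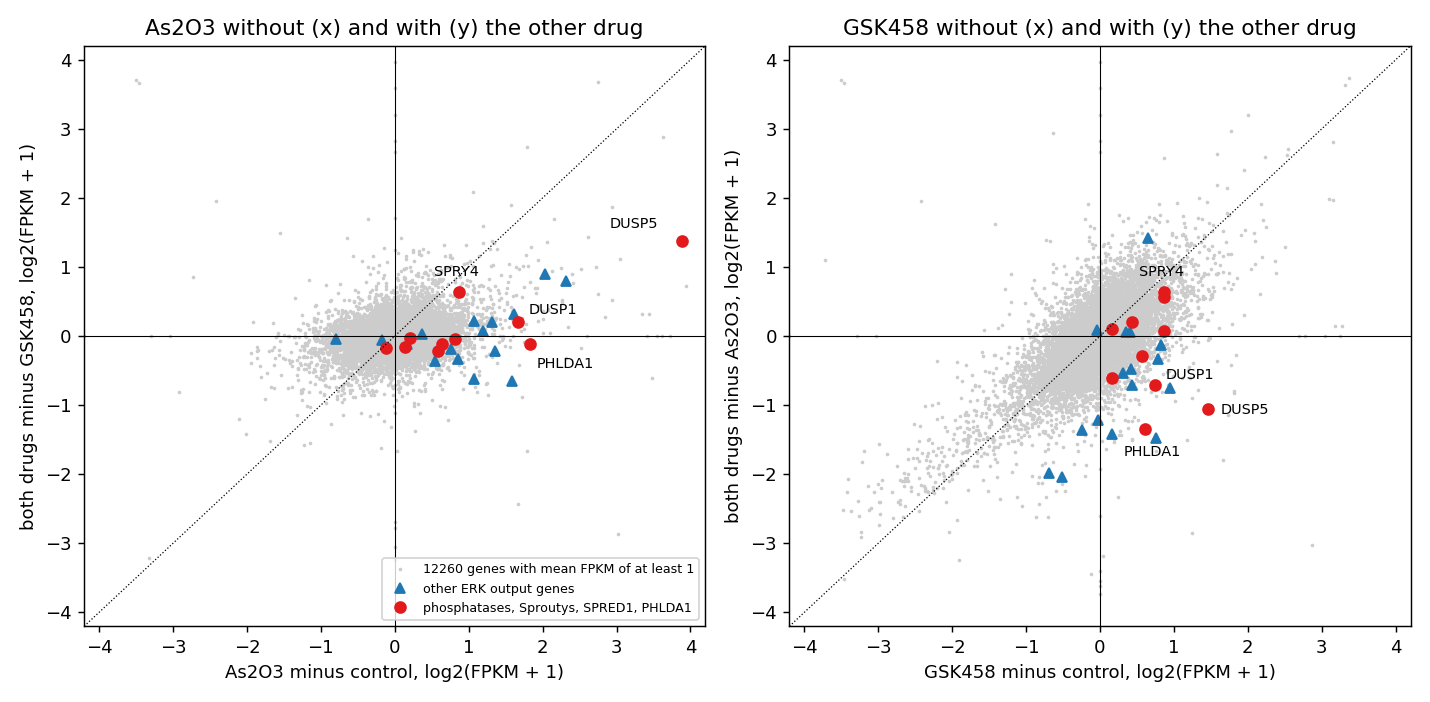
Log2(FPKM + 1) difference for As2O3 (left) and for GSK458 (right) without the other drug (x axis) and with it (y axis), for the 10 genes (red), 16 other ERK output genes (blue) and all 12260 genes (grey). The dotted line marks equal differences, and 17 genes on the left and 20 on the right lie outside the axes. DUSP5, DUSP1, PHLDA1 and 14 of 16 blue points lie below the dotted line at left, and DUSP5, PHLDA1 and DUSP1 lie to the right of 0 and below 0 at right.

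The departure from additivity is the difference for both drugs minus the sum of the single-drug differences. It was below 0 in all 10 genes, with a median of −0.78, whereas 49.6% of all genes were above 0 and their median was 0.00. DUSP5, PHLDA1 and DUSP1 departed by −2.50, −1.95 and −1.45, past 2-fold below the sum, against 2.05% of all genes, and none departed by 2-fold above it, against 1.33%. For DUSP5 the single-drug differences added up to 5.34, and both drugs gave 2.84. For PHLDA1 they added up to 2.43, and both drugs gave 0.49. SPRED1 and SPRY4 were nearest to the sum, at −0.06 and −0.23. With the libraries brought to equal sums of 1000000, SPRED1 stood at 0.07. The control value enters the departure and the single-drug differences with opposite signs, so a low control library would raise both single-drug differences and lower the departure at once.

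**Figure D4:**
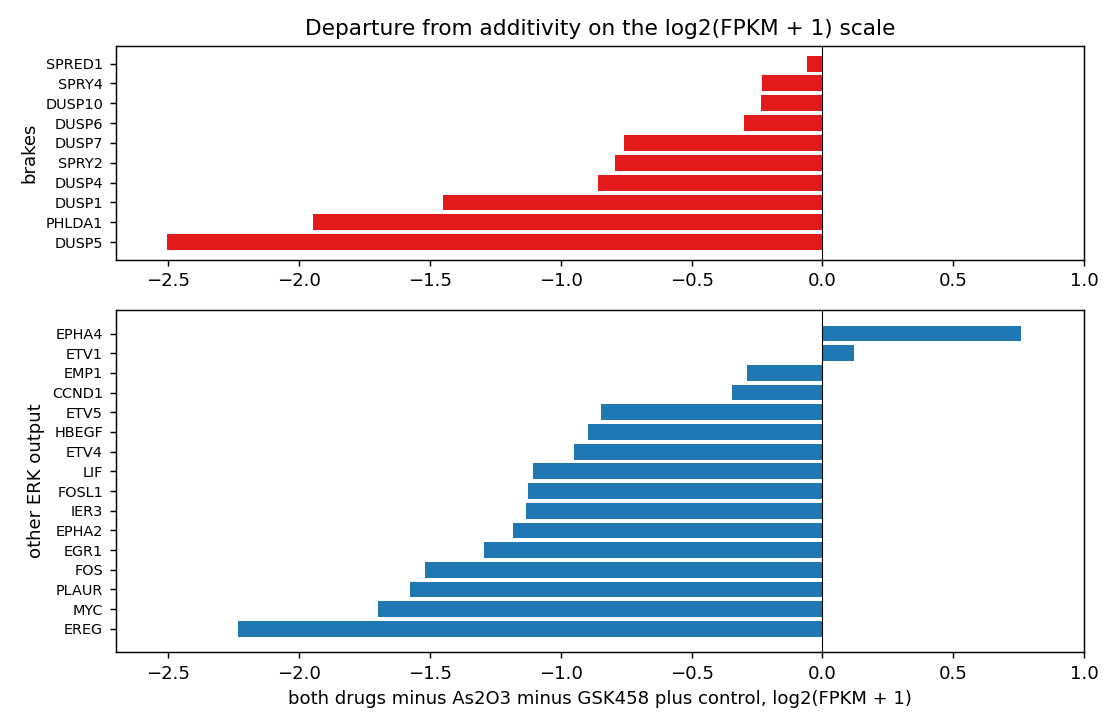
Departure from additivity (both drugs minus As2O3 minus GSK458 plus control, log2(FPKM + 1)) of the 10 genes of the set (red bars) and of 16 other ERK output genes (blue bars). All red bars point below 0, DUSP5 furthest at −2.50, and 14 of 16 blue bars do.

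The remaining genes of the pathway were read from lists of known members. Other output genes of ERK were mostly higher with As2O3. Of 18 such genes 16 passed the expression filter, and with As2O3 14 were higher than in the control, 9 of them at least 2-fold, against 2.07% of all genes (median 1.07). EPHA4 and ETV1 were lower, at −0.80 and −0.17. The largest differences were 2.31 for FOS, 2.03 for FOSL1, 1.62 for EGR1 and 1.59 for the receptor ligand EREG. FOS stood at 14.5 FPKM with As2O3, 1.18 FPKM with GSK458, 2.78 FPKM with both drugs and 2.13 FPKM in the control. FOS and EGR1 are immediate early genes that handling of a culture can also induce, and the part of this in the values was not tested.

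With GSK458 none of these 16 genes was at least 2-fold apart from the control (median 0.37), against 6.22% of all genes. The largest difference was that of MYC, at 0.95, with 88.4 FPKM with GSK458 and 45.2 FPKM in the control. FOS and EGR1 stood at −0.52 and −0.69, while all 10 genes of the set were higher than in the control. With both drugs none was at least 2-fold apart either (median 0.30), against 7.56% of all genes, and LIF came closest at 0.99. Against As2O3 alone, both drugs gave 6 genes at least 2-fold lower, led by FOS, EGR1, EREG and PLAUR at −2.04, −1.99, −1.48 and −1.42, and 1 higher, the ephrin receptor EPHA4 at 1.41, against 4.27% lower and 2.28% higher over all genes. Against GSK458 alone none of the 16 was at least 2-fold apart, against 0.962% of all genes, and FOSL1 was the furthest at 0.91. In a list of 16 genes these counts of none are near the shares of all genes.

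The ETS transcription factors ETV4 and ETV5 are targets of ERK in the same published scores. ETV4 stood at 60.8 FPKM with As2O3, 63.3 FPKM with GSK458, 55.7 FPKM with both drugs and 35.3 FPKM in the control. ETV5 stood at 21.0 FPKM with As2O3, 12.0 FPKM with GSK458, 14.2 FPKM with both drugs and 9.46 FPKM in the control. ETV4 was thus at a like level in all 3 treated libraries, as DUSP4 was, while ETV5 was highest with As2O3, as DUSP1 was.

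The components of the cascade had medians near 0. None of 21 genes from the receptor EGFR to ERK was at least 2-fold apart in any of the 5 comparisons, and the median lay between −0.04 and 0.10. Over all genes 3.48%, 6.22% and 7.56% were 2-fold apart either way for As2O3, GSK458 and both drugs against the control. The share was 6.56% for both drugs against As2O3 and 0.962% against GSK458. A count of none among 21 genes is near these shares. MAPK3, which encodes a form of ERK itself, stood at 41.8 to 51.6 FPKM. The largest difference in the list was that of HRAS, at −0.84 with As2O3, with 17.7 FPKM against 32.3 FPKM in the control. Of 13 measured genes of the JNK and p38 cascade, MAP2K6, which activates p38, was the 1 at least 2-fold apart from the control. It was lower with GSK458 and with both drugs (−1.30 and −1.37), against 3.87% and 4.31% of all genes. MAP2K3, which also activates p38, was at least 2-fold lower with both drugs than with As2O3 (−1.22), against 4.27% of all genes.

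Further phosphatases outside the set differed from the control by less than 2-fold on the log2(FPKM + 1) scale. DUSP8, DUSP9 and DUSP16 were measured, none of them 2-fold apart in any of the 5 comparisons on the log2(FPKM + 1) scale. DUSP8 came closest with As2O3 at 0.96, with 10.9 FPKM with As2O3 and 5.12 FPKM in the control. Without the pseudocount, the ratio of these DUSP8 levels was past 2-fold. The departure of DUSP8 from additivity was −1.08, also past 2-fold. DUSP2 was at 0.40 FPKM or less in every library. Of 6 measured atypical family members, which lack the MAP kinase binding domain, none was 2-fold apart, and DUSP22 had the largest difference, 0.72 with GSK458. In lists this small, these counts of none are near the shares over all genes given above. Among 9 other feedback genes, RGS2 alone was at least 2-fold lower with As2O3, GSK458 and both drugs than in the control, at −1.64, −2.19 and −2.60. Over all genes those shares were 1.41%, 3.87% and 4.31%. The medians of the 9 were 0.00, −0.04 and −0.16. With both drugs 4 of the 9 were higher than in the control. ERRFI1, which restrains EGFR, was 1 of these and was highest with both drugs, at 38.2 FPKM against 26.4 FPKM in the control. CIC, the repressor of ETV and DUSP genes that ERK switches off, stood between 15.7 and 17.9 FPKM in the 4 libraries, and its partners ATXN1 and ATXN1L were less than 2-fold apart in each comparison.

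Genes with the most similar profile over the 4 libraries were sought by Euclidean distance between centred log2(FPKM + 1) profiles, among 9797 genes with at least 5 FPKM in a library. For DUSP5 they were TFPI2, a protease inhibitor, at a distance of 0.33, and GDF15, a secreted stress marker, at 0.74. TFPI2 stood at 664 FPKM with As2O3, 109 FPKM with GSK458, 301 FPKM with both drugs and 32.0 FPKM in the control. DUSP1 was closest to ADM2 (0.05) and CHMP1B (0.16), PHLDA1 to GATSL3 (0.22) and IFRD1 (0.28), and SPRY4 to FKBP11 (0.11) and GNG11 (0.16). A profile of 4 values tells few genes apart, so the likeness is a description.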

How the data were processed

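RNA was sequenced from 4 cultures, 1 per group, as given by the sample labels. Libraries were made with a stranded poly(A) mRNA kit, per the labels' protocols. The deposited table holds FPKM values that the authors made from their reads. The submitters' processing notes name Cuffdiff 2.2.1, TopHat2 2.1.1, SAMtools 0.1.18, Bowtie2 2.2.8 and the build hg19 without roles. The annotation, strand setting and treatment of multi-mapped reads are not given. FPKM keeps no read counts, so no counting interval was computed.

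Values were used as deposited, in Python 3.11.15 with pandas 2.3.3. Differences were taken after adding a pseudocount of 1 FPKM, over genes that averaged 1 FPKM or more. The calculation was tested on simulated data. Genes were called at 2-fold. The named genes are the 10 members, up to 4 genes each way per list and comparison by size (the largest where none was 2-fold apart), the 2 nearest profiles of each member spanning at least 2-fold, leaving out small RNA genes. Any other gene named was chosen after its values were seen. The members and the 10 gene lists were chosen with earlier results of these data known. Alternatives covered pseudocount, filter, scaling and threshold. Motifs were searched in RefSeq promoters (GRCh38.p14), where 8 members matched, and in GENCODE v29 transcripts. A planned search of protein signatures was not run. Some genes of the lists are not reported here.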

Additional observations from a re-analysis of the deposited data

Results flagged for a closer look

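For 3 genes GSK458 was followed by a higher level without As2O3 and a lower level in its presence, each by at least 1.5-fold. Of all 12260 genes 31 did so (0.253%), and 53 went opposite ways in either order (0.432%). The log2 differences without and with As2O3 were 0.74 and −0.71 for DUSP1, 1.46 and −1.05 for DUSP5, and 0.61 and −1.34 for PHLDA1. Each rests on 1 library per group, and the difference between the settings was not tested. For As2O3, no gene of the 10 went opposite ways by that much without and with GSK458, against 33 of all genes (0.269%).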

How the results depend on the processing

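No replicate exists, so none could be left out, and no spread between cultures limits the values. No paired analysis was possible because each group has 1 library. Of 420 recomputed differences and departures of the 10 genes, 415 kept their sign, and the 5 others were within 0.08 of 0 under the alternative setting. Many of these signs could not change. The filter settings leave the values of each gene as they were, and another pseudocount cannot flip a difference between libraries. All 5 changes came with rescaling to equal sums or with upper-quartile scaling. The count of 415 is thus a weak measure of robustness. DUSP1 with both drugs against the control passed 2-fold with a pseudocount of 0.1 FPKM (1.02). With upper-quartile scaling 1 gene in place of 2 was at least 2-fold apart between both drugs and As2O3, since DUSP5 stood at −0.97. With a threshold of 1.5-fold, by construction, more genes were counted: 6 with As2O3, 6 with GSK458 and 5 under the combination, each against the control, 5 for both drugs against As2O3 (1 higher and 4 lower) and 2 for both drugs against GSK458. Over all genes that threshold called 13.9%, 18.9%, 21.6%, 21.1% and 3.73%. The counts under the remaining settings were within 1.5 times the reported ones. Rescaling to equal sums moved the median of all genes by −0.10 for GSK458 against the control. The absolute depth is unknown, so counting error could not be given.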
